A study of Mus musculus with 6 samples.

Results

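The guanylate-binding proteins (GBP) and the immunity-related GTPases (IRG) are interferon-inducible GTPases, described here through 9 mouse genes, Gbp2, Gbp3, Gbp4, Gbp6, Gbp7, Irgm1, Irgm2, Igtp and Iigp1. Members were all probe sets whose platform annotation names 1 of these genes and no other, which gave 12 of the 45037 probe sets other than controls, for 8 of 18194 named genes. Gbp4 had only a probe set that the annotation gives to Gbp8 and Gbp4 together. It is described apart and not counted. Expression had been measured with Affymetrix oligonucleotide arrays in sorted megakaryocyte progenitors (MkP), the precursors of megakaryocytes and platelets. The 3 fetal liver samples came from embryos at E13.5 and the 3 bone marrow samples from adult mice aged 12 to 18 weeks. All 6 were wild type C57BL/6, and in both tissues the sort kept cells negative for lineage markers and Sca-1 and positive for c-kit, CD150 and CD41. The labels call them biological replicates without saying how many animals or embryos each pooled, so p-values measure the spread between these samples. Tissue and age differ together between the groups and cannot be told apart.

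Both families defend the cell interior. GBP are large GTPases of the dynamin superfamily that assemble on the vacuoles and surfaces of intracellular microbes, and IRG are smaller GTPases that bind and disrupt such vacuoles. Within the IRG family, Irgm1, Irgm2 and Igtp (also called Irgm3) are regulators that keep the effector proteins, of which Iigp1 (Irga6) is one, off the host's own membranes. Interferon gamma is the classical inducer of both families, acting through STAT proteins at GAS elements and through interferon regulatory factors (IRF) at interferon-stimulated response elements (ISRE). In mice, Irgm1 is also needed for normal function of haematopoietic stem cells.

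The promoters are printed to show the letters that such factors are known to recognise, for the 6 genes with a RefSeq window used here (GRCm38.p6). The stretches run from 110 bases before to 10 bases after the annotated gene start, 5′ to 3′ on the gene's strand, with matches to the ISRE core or to the GAS motif in capitals.
Gbp3, chr3:142559934-142560053, plus strand: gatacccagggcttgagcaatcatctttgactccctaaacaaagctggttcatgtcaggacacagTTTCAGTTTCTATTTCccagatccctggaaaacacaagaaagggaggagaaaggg
Gbp2, chr3:142620553-142620672, plus strand: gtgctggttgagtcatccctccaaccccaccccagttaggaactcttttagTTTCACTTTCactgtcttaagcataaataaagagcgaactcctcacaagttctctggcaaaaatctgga
Gbp7, chr3:142530226-142530345, plus strand: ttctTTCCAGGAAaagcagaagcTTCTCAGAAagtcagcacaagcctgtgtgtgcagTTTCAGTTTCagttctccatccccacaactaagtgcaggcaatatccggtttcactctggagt
Igtp, chr11:58199446-58199565, plus strand: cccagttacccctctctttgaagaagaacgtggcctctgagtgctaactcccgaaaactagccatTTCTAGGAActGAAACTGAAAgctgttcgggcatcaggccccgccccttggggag
Irgm2, chr11:58214867-58214986, plus strand: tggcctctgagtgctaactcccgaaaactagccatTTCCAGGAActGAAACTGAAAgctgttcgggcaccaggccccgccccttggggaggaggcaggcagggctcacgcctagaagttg
Irgm1, chr11:48871411-48871530, minus strand: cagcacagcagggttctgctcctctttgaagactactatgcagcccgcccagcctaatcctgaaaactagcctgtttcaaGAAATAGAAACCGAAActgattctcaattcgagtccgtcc

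The ISRE core was searched on both strands as GAAA, any 2 bases and GAAA again, and GAS as TTCNNNGAA, which reads the same on both. All 6 genes had an ISRE core in their window of 300 bases (250 before the start), against 3.99% of 27025 genes with windows of that length. In Gbp3 and in Irgm1 there were 2 cores that overlap each other, and a second annotated start of Gbp3 had none. GAS was present in 3 of the 6, at 2 sites in Gbp7 and at 1 each in Igtp and Irgm2, against 9.55% of all these genes. In Igtp and Irgm2 the GAS ends 2 bases before the ISRE core. Their windows share an identical run of 61 bases, which holds neither motif. This run starts after the ISRE core, at base 240 of the window in Igtp and 210 in Irgm2, and reaches the end of the Igtp window. The matches describe letters only, and no binding was measured.

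Gbp3, Gbp2, Igtp, Irgm2 and Gbp7 fell past the threshold, which was a limma adjusted p under 0.05 over 11625 genes, and Irgm1 did not pass it. In bulk samples fewer cells of a type and less RNA per cell cannot be told apart. All 12 probe sets had a lower mean signal in fetal liver, 4 of them too dim to pass the brightness filter. Of all genes tested 49.5% had a negative log2 difference, a share over genes and not over probe sets. Of the 8 named genes 6 had a probe set bright enough to be tested, and 5 of these fell and 0 rose, where 4.76% of all genes fell and 3.01% rose. Of the 8 probe sets kept 6 fell and 0 rose, where 3.28% of all probe sets fell and 1.78% rose. The tissues did not overlap in 7 of these 8, as in 14.4% of all kept probe sets in this direction. In 5 of the 6 tested genes all 3 fetal liver signals lay below all 3 marrow signals, as in 14.2% of all genes. Gbp2 and Gbp3 passed the brightness filter only through their marrow signals, so the share called among the tested members is a description and supports nothing about the members. With no filter on brightness 4 of 8 fell, where 2.73% of all genes fell, and the median log2 difference was -2.04 over the 8 genes and -0.03 over all genes.

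**Figure D1:**
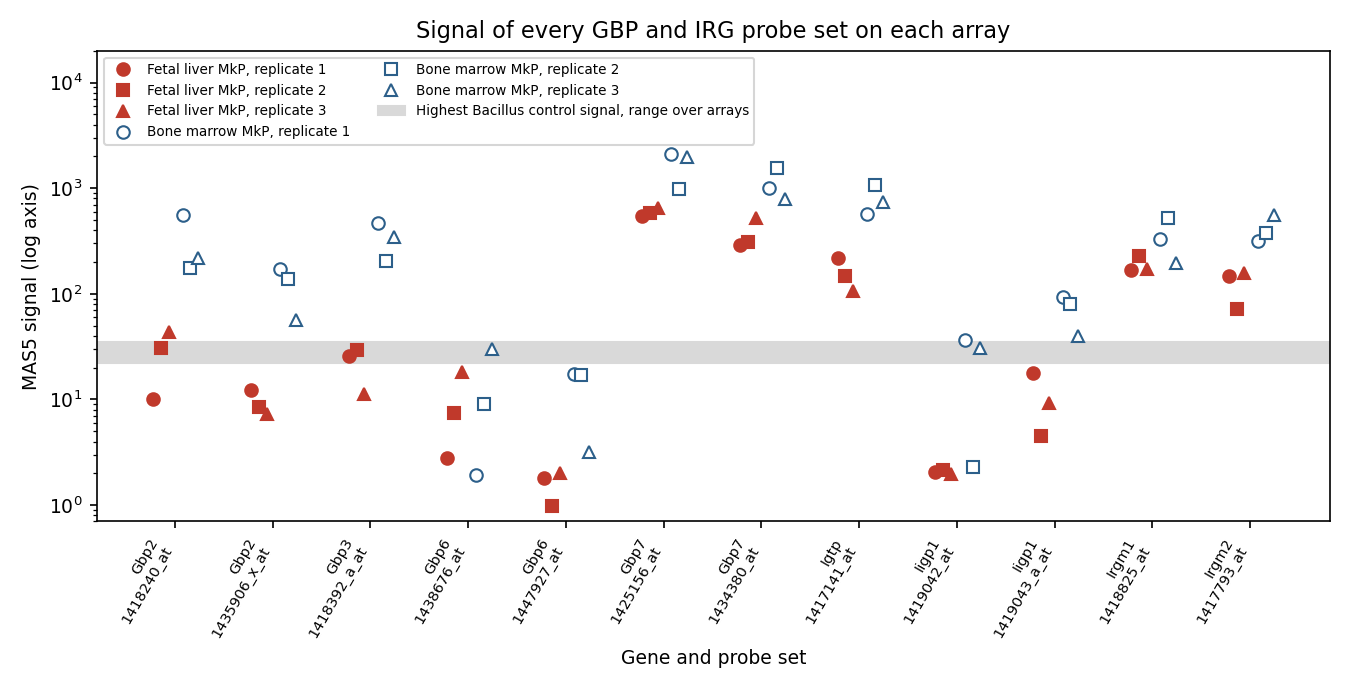
MAS5 signal (log axis) of each of the 12 probe sets on each array, filled red for the 3 fetal liver MkP samples and open blue for the 3 bone marrow MkP samples, with the range of the highest Bacillus control signal in grey. The tissues separate for Gbp2, Gbp3, Gbp7, Igtp, Irgm2 and Iigp1 and overlap for Irgm1. For Iigp1 by 1419042_at the nearest signals, 2.17 in fetal liver and 2.29 in marrow, lie below the grey range. Gbp6 signals lie below the grey range or within it, and the tissues overlap by 1438676_at but not by 1447927_at.

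Gbp3, of the GBP cluster on chromosome 3, had signals of 25.6, 29.5 and 11.3 in fetal liver replicates 1, 2 and 3, against 471, 203 and 344 in the marrow replicates. The lowest marrow array was thus well above the highest fetal liver array, and only 1 of the 3 fetal liver arrays exceeded the array's highest Bacillus control signal, the measure of background used here. Gbp3 fell by 3.78 ± 0.56 on the log2 scale (SE of limma, adjusted p = 0.00294), to a mean of 22.1 ± 9.58 in fetal liver, against 339 ± 134 in marrow (SD, n = 3 each). Without fetal liver replicate 3 the difference was -3.41 for Gbp3 and -3.75 for Gbp2, so the order of these genes turned.

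Gbp2, a GBP that attaches to membranes through a lipid tail, was measured by 2 probe sets. For the brighter (1418240_at) the signals were 10.2, 30.5 and 43.3 in fetal liver, against 554, 175 and 219 in marrow. Marrow replicate 1 stood above the other marrow arrays, and 2 of the 3 fetal liver arrays were above background. Gbp2 fell by 3.37 ± 0.65 (SE, limma adjusted p = 0.0115). With every probe set fitted as its own feature, the call of this one ended with marrow replicate 1 left out (adjusted p = 0.0610; 0.00919 to 0.0610 over all alternatives). The dimmer probe set (1435906_x_at), of a kind that can cross-hybridise, gave 12.3, 8.52 and 7.28 in fetal liver, against 173, 138 and 56.1 in marrow. It was above background on no fetal liver array and on all 3 marrow arrays, which made the signal in fetal liver at least 3.46-fold lower (limma adjusted p = 0.0183 over 27022 probe sets). The bound takes for each fetal liver array whichever was larger, its control limit or the probe set itself. Leaving out fetal liver replicate 2 or 3 ended the call of this probe set (limma adjusted p = 0.0645 and 0.0728), and so did a floor at the highest control signal (0.0712; 0.0183 to 0.0728 over all alternatives).

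Gbp7 remained readily measurable in fetal liver. Probe set 1425156_at had signals of 541, 588 and 648 in fetal liver, against 2105, 979 and 1994 in marrow. A fall of 1.44 ± 0.32 (SE, limma adjusted p = 0.0241) corresponds to a 2.70-fold lower level. The other probe set (1434380_at) had 289, 308 and 518 in fetal liver, against 997, 1554 and 798 in marrow, and changed by -1.57 ± 0.36 (SE, limma adjusted p = 0.0324 over probe sets). That call ended without fetal liver replicate 1 or 2 (adjusted p = 0.0934 or 0.130) or marrow replicate 1 or 2 (0.0681 or 0.0924; 0.0246 to 0.130 over all alternatives). The probe sets gave similar differences between tissues but different orders within marrow, where replicate 2 was lowest by the first and highest by the second. Leaving out fetal liver replicate 1, 2 or 3 ended the call for Gbp7 as a gene, read from the first probe set, in limma (adjusted p = 0.0717, 0.0827 or 0.0708), as did leaving out marrow replicate 1 or 3 (0.0730 or 0.0727). Without marrow replicate 2 it was past the threshold (limma adjusted p = 0.00431; 0.00431 to 0.0827 over all alternatives).

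The remaining GBP probe sets gave no call. For Gbp6 the signals were 2.82, 7.51 and 18.4 in fetal liver, against 1.94, 8.96 and 30.2 in marrow by 1438676_at. They were 1.80, 0.974 and 2.02 in fetal liver, against 17.5, 17.0 and 3.18 in marrow by 1447927_at. Only marrow replicate 3 exceeded background, by the first probe set, so Gbp6 has no measured fold and fell below the filter. The probe set shared by Gbp8 and Gbp4 ran the other way, with 199, 313 and 312 in fetal liver, against 184, 99.2 and 118 in marrow. Its tissues did not overlap, but its difference of 1.04 ± 0.45 was not past the threshold (SE, limma adjusted p = 0.226 over probe sets), and which of the 2 genes it measured is uncertain.

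Igtp, an IRG regulator on chromosome 11, had signals of 217, 149 and 106 in fetal liver, against 569.8, 1083 and 737 in marrow. All 6 arrays were above background and the tissues were well apart. Igtp fell by 2.33 ± 0.41 (SE, limma adjusted p = 0.00737), to a mean of 157 ± 55.8 in fetal liver, against 797 ± 262 in marrow (SD, n = 3 each).

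Irgm2, which lies next to Igtp on chromosome 11, had signals of 149, 72.5 and 156 in fetal liver, against 319, 377 and 555 in marrow. The tissues did not overlap, and the fall was 1.74 ± 0.45 (SE, limma adjusted p = 0.0428). This is a call close to the threshold. It was lost in limma with any 1 array left out (adjusted p = 0.0583 to 0.163) and when every probe set was fitted as its own feature (adjusted p = 0.0548; 0.0271 to 0.163 over the alternatives for the gene). With all arrays the gene's call also ended under quantile normalization (limma adjusted p = 0.0707) and median centring (0.0591). The same held with no brightness filter (0.0571) and no variance trend (0.0560). It was past the threshold in 8 of 18 alternatives.

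Irgm1, the third regulator, had signals of 169, 228 and 174 in fetal liver, against 330.0, 526 and 194 in marrow. Marrow replicate 3 lay between the fetal liver values, so the tissues overlapped. The mean was 190.1 ± 32.5 in fetal liver and 349.9 ± 167 in marrow (SD, n = 3 each). The log2 difference of -0.77 ± 0.45 was not past the threshold (SE, limma adjusted p = 0.352), with a 95% interval of -1.77 to 0.23. That interval holds both no change and a level 3.40-fold lower in fetal liver. Without marrow replicate 2 the difference was -0.42 and without marrow replicate 3 it was -1.13, neither past the threshold (limma adjusted p = 0.653 and 0.156).

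Iigp1, the effector among the 4 IRG, was dim. By 1419043_a_at its signals were 17.7, 4.53 and 9.33 in fetal liver, against 92.7, 79.5 and 39.9 in marrow, so it was above background on every marrow array and on no fetal liver array, and at least 2.12-fold lower in fetal liver. Its mean over the arrays lay just below the filter (4.87 against a limit of 5.10 on the log2 scale), and without the filter the difference of -2.50 ± 0.74 was not past the threshold (SE, limma adjusted p = 0.112 over 45037 probe sets). By 1419042_at the signals were 2.07, 2.17 and 1.98 in fetal liver, against 36.4, 2.29 and 30.8 in marrow, where 2 of the 3 arrays were above background.

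**Figure D2:**
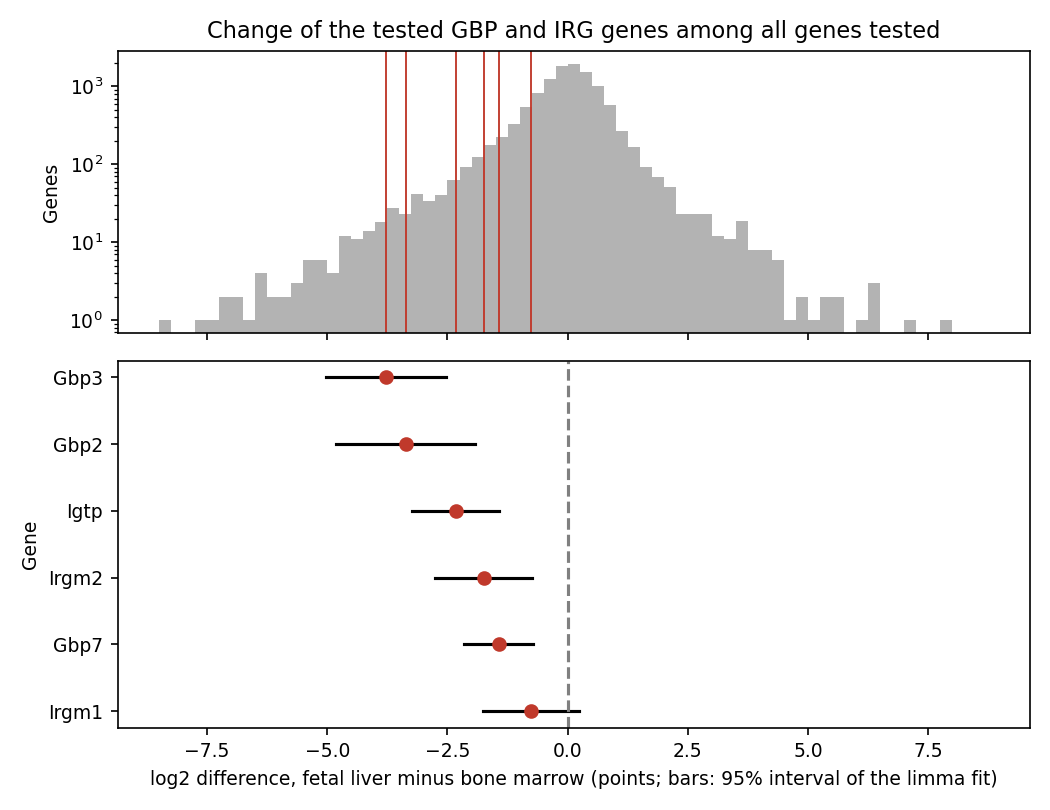
Upper panel, number of genes (log axis) by log2 difference, fetal liver minus bone marrow, over the 11625 genes tested, with the 6 tested members as red lines; lower panel, each member's difference with its 95% interval. Gbp3 lies at -3.78 and Irgm1, whose interval crosses 0, at -0.77.

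The differences of the members ranged from -3.78 for Gbp3 to -0.77 for Irgm1. Each gene's log2 signal was set against another's on the same array, and the difference was compared between tissues for all 15 pairs. In 6 pairs the arrays of the tissues did not overlap. These were Gbp3 against Gbp7, Irgm1 and Irgm2, Gbp2 against Gbp7 and Irgm1, and Igtp against Irgm1, where the first named of each changed more. Gbp3 differed from Irgm1 by -3.01 and Igtp from Irgm1 by -1.56 (log2, two-sided exact permutation p = 0.1 each, adjusted p = 0.25 over the 15 pairs). With 3 against 3 arrays an exact p cannot be below 0.1, so no pair could pass. Neighbours in the order of change, from Gbp3 through Gbp2, Igtp, Irgm2 and Gbp7 to Irgm1, overlapped in each case.

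Within each tissue no array was high or low for all members. Marrow replicate 1 was the highest marrow array for 3 of the 6 tested genes and the lowest for 2, and marrow replicate 2 the highest for 2 and the lowest for 3. Summed over the 3 tested GBP, the signal was 576, 648 and 703 in fetal liver, against 3130, 1357 and 2557 in marrow. Over the 3 tested IRG it was 535, 449 and 436 in fetal liver, against 1219, 1986 and 1486 in marrow. By these sums marrow replicate 2 was lowest for the GBP and highest for the IRG. The GBP sum rested mostly on Gbp7 by 1425156_at, at 2105, 979 and 1994 in marrow. The other Gbp7 probe set, 1434380_at, had 997, 1554 and 798 there, with replicate 2 highest. Irgm2 was highest in marrow replicate 3. The order of the sums thus depends on the probe set and the gene. In a principal component analysis of all genes, marrow replicate 2 scored 63.4 on the second component (18.6% of the variance). The other marrow arrays scored -39.3 and -32.7.

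With 1 array left out, 3 or 4 member genes fell in place of 5. The 5 became 3 without each of fetal liver replicates 1, 2 and 3 and without marrow replicates 1 and 3, and 4 without marrow replicate 2. Gbp3, Gbp2 and Igtp were past the threshold in limma in every alternative that tested them (16, 17 and 18 of 18), with adjusted p of 0.00159 to 0.0150, 0.00626 to 0.0439 and 0.00495 to 0.0336. Irgm1 was past it in 0 of 18. Centring each array on its median moved the median of all genes to 0.26 (log2) and turned the split of all calls from 350 higher and 553 lower in fetal liver to 897 higher and 438 lower. The 6 tested members kept a negative difference under it, with a median of -1.79 against -2.04 without it, and 4 of them fell.

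**Figure D3:**
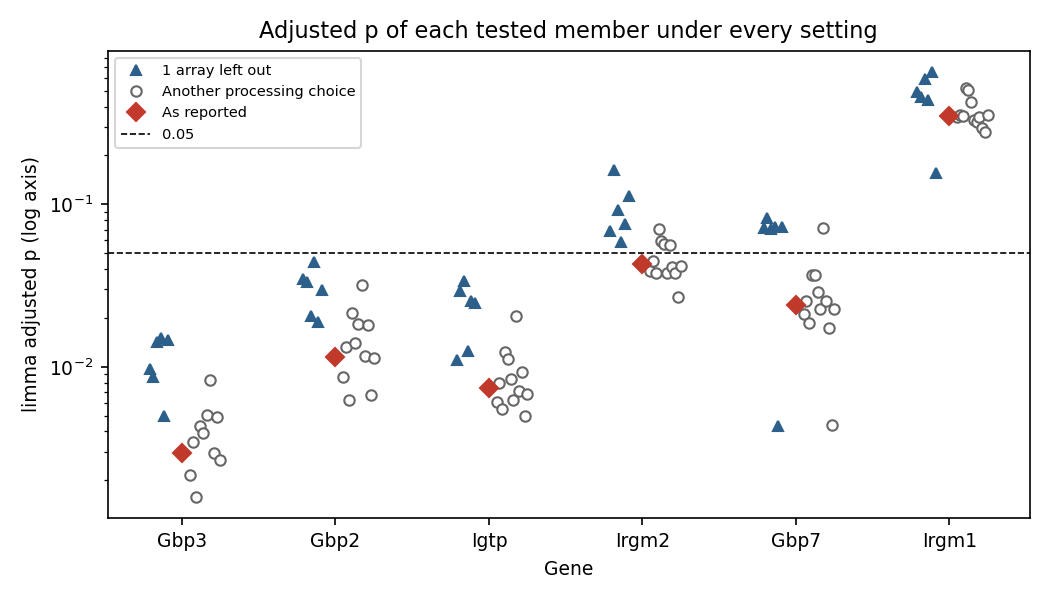
limma adjusted p (log axis) of each tested member as reported (red), with 1 array left out (blue triangles) and under each other processing choice (open circles); the dashed line is the threshold of 0.05. Gbp3, Gbp2 and Igtp lie below the line throughout, and Irgm1 lies above it throughout. Irgm2 lies above it whenever an array is left out and under some of the other processing choices.

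The positive sort markers Itga2b (CD41), Kit and Slamf1 (CD150) were above background on all 6 arrays. None was past the threshold (limma adjusted p = 0.109, 0.384 and 0.671). Itga2b signals did not overlap, at 2484 to 4056 in fetal liver, against 4173 to 5397 in marrow. Sca-1 was not among the markers listed. The sum of 11 measured MkP genes was 42070 to 50211 in fetal liver, against 48851 to 53309 in marrow. None of the 11 was past the threshold, but the brightest ran opposite ways without overlap. Pf4 was at 15264 to 19031 in fetal liver, against 20094 to 22903 in marrow. Itgb3 was at 12620 to 17094, against 11385 to 12609. Gata1 and Gp9 were also higher in fetal liver without overlap. Granulocyte and monocyte markers moved with the members. Of 12 listed 9 were measured and 8 fell, and their sum was 4675 to 6491 in fetal liver, against 42737 to 59968 in marrow. Some of them, such as Ltf, Ngp and Elane, passed the brightness filter only through their marrow signals. So did Cd163, H2-Aa, Nlrc5 and Casp1 in the lists below, and Hbb-y and Hbb-bh1 passed it only through fetal liver. The shares called in these lists are thus descriptions, as for the members. Ltf, which encodes lactoferrin, was above background on no fetal liver array, while Mpo, myeloperoxidase, was at 3558 ± 1284 in fetal liver, against 17513 ± 8052 in marrow (SD, n = 3 each). S100a9 had signals of 492, 90.0 and 2.78 in fetal liver, against 7591, 12466 and 9324 in marrow.

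Macrophage and dendritic cell markers, whose cells express GBP and IRG strongly in mice, also moved. Of 15 listed 9 were measured and 5 fell, Csf1r, Cd163, Cd74, H2-Aa and Vcam1. The 5 became 2 without fetal liver replicate 1 and 3 without fetal liver replicate 3 or marrow replicate 3. Over all alternatives 1 to 6 fell. The sum of the 9 was 472 to 634 in fetal liver, against 2637, 2939 and 6348 in marrow replicates 1, 2 and 3. Csf1r was at 195 ± 65.1 in fetal liver, against 1676 ± 577 in marrow, and Cd163 and H2-Aa were above background on no fetal liver array. Marrow replicate 3 had the highest sums of the macrophage, granulocyte and T and NK cell markers. Without that array the differences were -3.73 for Gbp3, -3.53 for Gbp2 and -2.36 for Igtp, past the threshold in limma (adjusted p = 0.0145, 0.0296 and 0.0246). They were -1.28 for Gbp7, -1.52 for Irgm2 and -1.13 for Irgm1, not past it (adjusted p = 0.0727, 0.113 and 0.156). The marrow arrays left in still had higher sums of these markers than every fetal liver array, so the omission tested no cause. For T and NK cells 3 of 12 markers were measured and 1 fell, Nkg7, at 117 ± 17.3 in fetal liver, against 1198 ± 374 in marrow. Prf1 was at 904 ± 25.1 in fetal liver, against 845 ± 269 in marrow (SD). Prf1 and Cd8a both overlapped between tissues, so only Nkg7 separated them. Of the other lists, 3 of 8 B cell markers were measured and 0 passed in limma (1 at an unadjusted p under 0.05, Vpreb1, with an adjusted p of 0.0633), and their sum was 339.8 to 506 in fetal liver, against 619 to 848 in marrow. Erythroid markers ran the other way, with 4 of 7 higher, Klf1, Rhag and the embryonic globins Hbb-y and Hbb-bh1. The 4 became 2 without fetal liver replicate 2 or 3, and were 1 to 5 over all alternatives. The sum of the 7 was 4760 to 16540 in fetal liver, against 1917 to 4385 in marrow. Of 5 hepatocyte markers 1 was higher, Apoa1 (2.51, limma adjusted p = 0.0481, with 0.0543 to 0.191 when any 1 array was left out), and the sum was 605 to 3644 in fetal liver, against 223 to 624 in marrow. Of 5 endothelial and stromal markers 1 was higher, Kdr (not past the threshold without fetal liver replicate 2 or 3), and the sum was 2533 to 4090 in fetal liver, against 2277 to 3285 in marrow. The part of any of these cells in the members' differences was not tested.

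**Figure D4:**
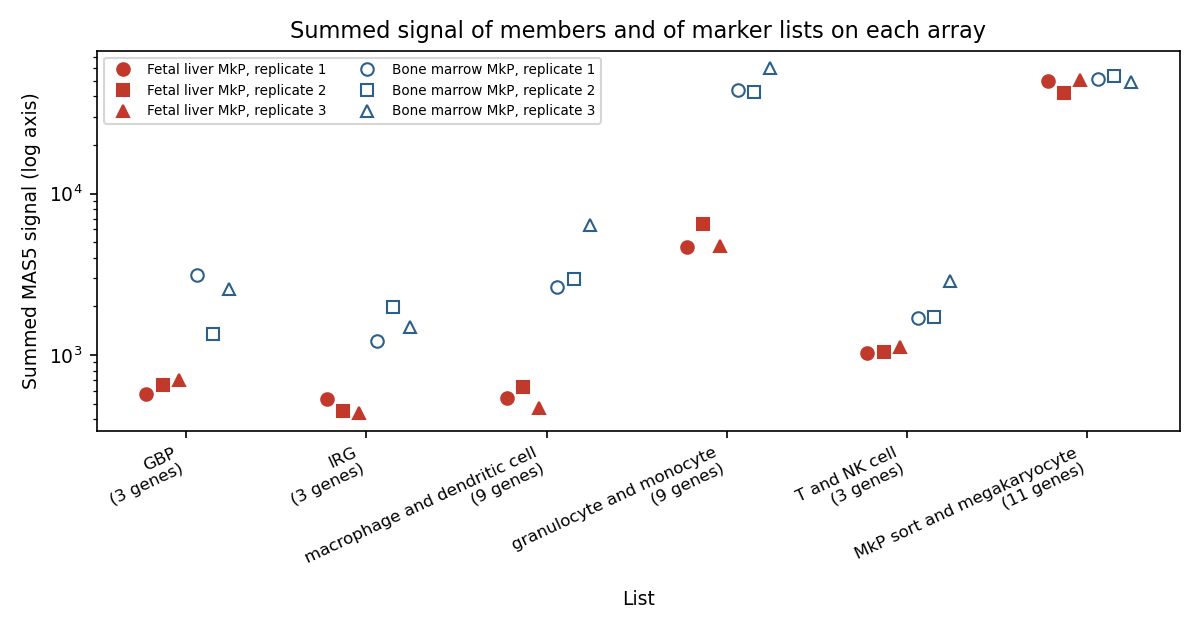
Summed MAS5 signal (log axis) on each array of the tested GBP and IRG genes and of 4 marker lists, filled red for fetal liver MkP and open blue for bone marrow MkP. Sums of GBP, IRG, macrophage, granulocyte and T and NK cell genes lie lower in fetal liver without overlap. Of the T and NK cell genes only Nkg7 separated the tissues. Sums of MkP genes overlap, while Pf4 and Itgb3 among them separated in opposite directions.

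Upstream of the members, 1 of the measured receptor and relay genes and 3 of the measured transcriptional regulators fell. Of 9 measured interferon receptor and relay genes 1 fell, the receptor chain Ifnar2 (-1.16 ± 0.22, SE, limma adjusted p = 0.0108), and 0 rose, with a median of -0.37 against 0.01 over all genes. It was not past the threshold with fetal liver replicate 2 left out (adjusted p = 0.0588) or with the mean of its probe sets (0.212; 0.00897 to 0.212 over all alternatives). The chains of the interferon gamma receptor, Ifngr1 and Ifngr2, differed by -0.85 ± 0.27 and 0.87 ± 0.42 (SE, limma adjusted p = 0.0904 and 0.259). Of the interferon ligands only Ifna1 was measured, by a probe set that can cross-hybridise, with a difference of -0.29 (adjusted p = 0.803). Ifng was above background on 1 of 6 arrays, marrow replicate 2, at a signal of 38.7.

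Of 7 measured interferon response factors and co-activators 3 fell and 0 rose, with a median of -1.04. Irf1, the factor that binds ISRE in GBP promoters after interferon gamma, had signals of 307, 187 and 379.8 in fetal liver, against 1151, 1118 and 1135 in marrow. The marrow values lay close together, and Irf1 fell by 2.01 ± 0.33 (SE, limma adjusted p = 0.00545). Irf8, an IRF of myeloid cells that also acts at ISRE, fell by 3.91 ± 0.53 (adjusted p = 0.00178), to 82.6 ± 25.1 in fetal liver, against 1504 ± 1153 in marrow (SD, n = 3 each). Nlrc5, known as a co-activator of MHC class I genes, had signals of 13.8, 3.23 and 12.7 in fetal liver, against 1479.5, 2937 and 1361 in marrow, and was at least 55.3-fold lower (adjusted p = 5.77e-05). Among 6 measured negative regulators 0 fell and 1 rose, the phosphatase Ptpn11, by 0.64 ± 0.17 (adjusted p = 0.04999). Leaving out any fetal liver array or marrow replicate 2 or 3 ended that call (adjusted p = 0.101 to 0.178; 0.0127 to 0.182 over all alternatives).

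Partners of the members differed by kind. Caspase-11 (Casp4) and gasdermin D (Gsdmd) act with GBP in the response to cytosolic bacteria, and of 6 measured inflammasome genes 3 fell and 0 rose, with a median of -1.47. Casp4 had signals of 56.5, 27.1 and 24.8 in fetal liver, against 1423, 1417 and 851 in marrow, and fell by 5.03 ± 0.46 (SE, limma adjusted p = 1.96e-04). Casp1 was above background on no fetal liver array and at least 20.4-fold lower (adjusted p = 2.18e-04). Gsdmd fell by 1.72 ± 0.40 (adjusted p = 0.0267), a call that ended without fetal liver replicate 1 or 3 or marrow replicate 3 (adjusted p = 0.0791, 0.103 and 0.0822; 0.0179 to 0.103 over all alternatives). The adaptor Pycard differed by 0.18 ± 0.29 (adjusted p = 0.775).

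Among 6 measured ubiquitin ligases and adaptors that mark vacuoles, 3 fell, with a median of -0.94. Rnf213 fell by 1.76 ± 0.33 (SE, limma adjusted p = 0.0101) and Trim21 and Tax1bp1 by 1.04 ± 0.25 and 0.84 ± 0.21 (adjusted p = 0.0346 and 0.0351). The 3 became 1 without fetal liver replicates 2 and 3 and marrow replicates 1 and 3, and also under median centring, without the variance trend and with the mean of probe sets. The machinery that GBP and IRG share with other pathways gave no call. Of 14 measured autophagy conjugation genes and 6 genes of prenylation and CaaX processing 0 passed in limma, with medians of -0.06 and 0.28. At an unadjusted p under 0.05 there was 1, Sqstm1 (0.82 ± 0.34, unadjusted p = 0.0348, adjusted p = 0.179), and Icmt differed by 0.51 ± 0.28 (adjusted p = 0.322). Of 11 dynamin superfamily genes with other functions 1 fell, Atl3 (-0.95 ± 0.20, adjusted p = 0.0161), and the median was 0.26. Atl3 was not past the threshold without fetal liver replicates 2 and 3 and marrow replicate 3 (adjusted p = 0.0898, 0.0577 and 0.0518; 0.00985 to 0.0898 over all alternatives).

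**Figure D5:**
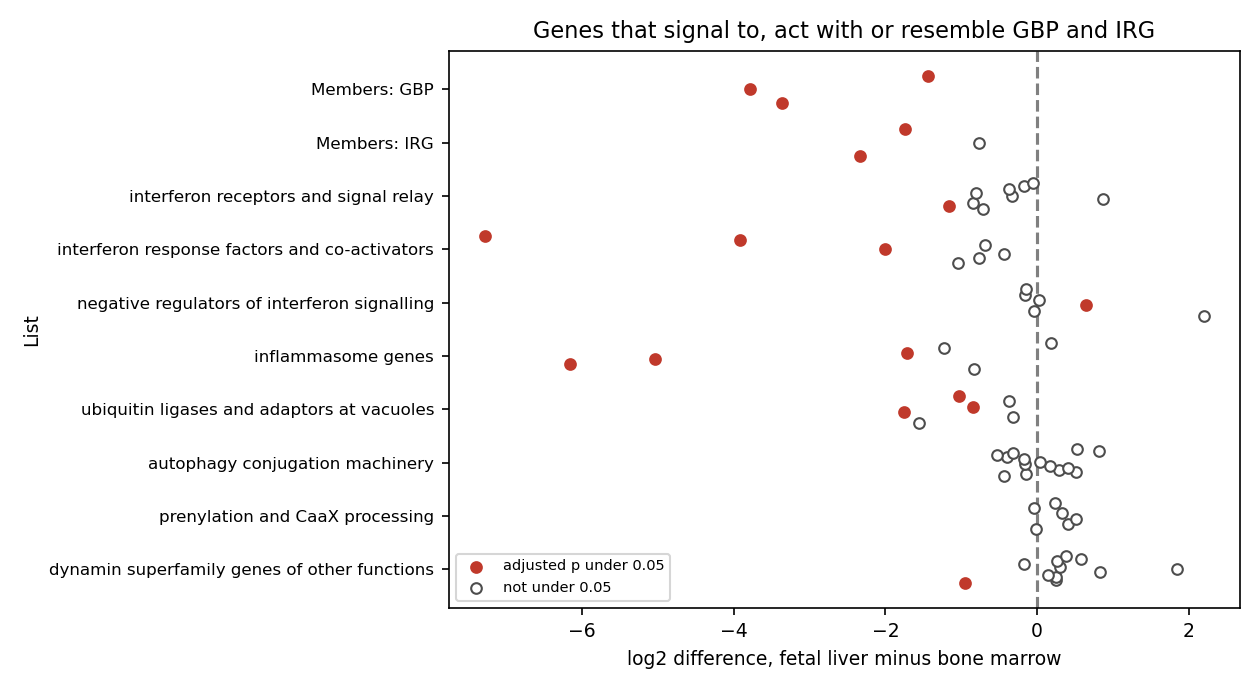
log2 difference, fetal liver minus bone marrow, of each measured gene of the members and of 8 lists of genes that signal to them, act with them or resemble them, filled red where the limma adjusted p was under 0.05. Points past the threshold lie left of 0 except Ptpn11 at 0.64, and autophagy and prenylation genes have none.

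Of 26 other listed genes of these and related GTPase families 7 had a probe set of their own and 1 was bright enough to be tested, Irgq, a member with no known interferon response, which differed by -0.69 ± 0.40 (SE, limma adjusted p = 0.348). Irgc1, below the filter, ran the other way, with 77.4, 56.5 and 29.3 in fetal liver, against 14.7, 6.21 and 16.04 in marrow. It was above background on all 3 fetal liver arrays and on no marrow array, which made it at least 1.78-fold higher in fetal liver. Gbp2b lay between 0.87 and 3.64 on every array, below background. Gbp8 lay between 0.731 and 2.89 by its own probe set, while the probe set it shares with Gbp4 was above background on all 6 arrays. Ifi47 (Irgd), an IRG outside the lists that was picked out after its values were seen, lies beside Irgm1. Its signals were 1001, 1037 and 1231 in fetal liver, against 3117, 1899.9 and 1988 in marrow, and it fell by 1.07 ± 0.25 (adjusted p = 0.0303). Leaving out fetal liver replicate 1, 2 or 3 ended that call (adjusted p = 0.0812, 0.117 or 0.0776), as did leaving out marrow replicate 1 (0.0787; 0.0207 to 0.117 over all alternatives).

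The genes most like the members were sought by the root mean square difference between their gene-centred log2 signals and the members' median profile over the 6 arrays. The closest were Mxd4 (0.121 log2 units), a MAX-binding repressor, the adaptor Dok3 (0.121), Syde2 (0.154), the lysozyme gene Lyz1 (0.178) and Irf1 (0.179). The members themselves lay farther from that profile, at 0.268 for Irgm2, 0.457 for Igtp, 0.503 for Gbp7, 0.833 for Irgm1, 1.09 for Gbp2 and 1.10 for Gbp3. With 2 tissues of 3 arrays this measure rests mainly on the size of the difference between tissues, which was -2.01 for Mxd4 and -2.23 for Lyz1.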

How the data were processed

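The authors had made 1 intensity value per probe set and array, on a linear scale, with MAS5, per the submitters' processing notes. Its version was not given in the sources used here. Every array had a mean of 500 after trimming at both ends, so arrays had been scaled before deposit. The number of arrays limits the precision. Signals were taken as log2(signal + 2.87), the offset being the 10th percentile, and probe sets with a mean above the 40th percentile (27022 of 45037) were kept. Symbols came from the platform annotation. Of several kept probe sets of a gene, the brightest on average stood for it.

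Fetal liver minus bone marrow was fitted with limma 3.58.1 in R 4.3.3 (intensity trend, Benjamini-Hochberg over all genes), and again over all kept probe sets. The code was tested on simulated data. Background on an array was the highest signal of 27 Bacillus control probe sets, between 22.2 and 35.1. Median signals were 62.8 to 65.5 in fetal liver and 74.1 to 80.2 in marrow. No arrays shared an identical value.

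The 18 alternatives were other offsets, a floor, quantile normalization, median centring, other filters, other variance models, a replicate block, other choices among probe sets and leaving out each array.

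The members, the lists and the rule for named genes were chosen with earlier results of these data known. The rule took, from each list, up to 4 called genes with the largest change or otherwise the 2 with the smallest p, the 2 brightest of each marker list, and the 5 genes most like the members. Not all are described. Promoters came from RefSeq (GRCm38.p6). Figures were drawn with matplotlib 3.10.9.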

Additional observations from a re-analysis of the deposited data

How the results depend on the processing

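The counts of genes lower in fetal liver depended on the variance model and on which arrays were used. Of the 5 member genes, 3 were called with the filter at the 60th percentile, where 4 were tested, and 3 without the variance trend. With 1 array left out the count was 3 to 4 for member genes (5 as reported), 2 to 5 for member probe sets (6 as reported), 317 to 451 for all genes (553 as reported) and 477 to 689 for all probe sets (886 as reported). Without the variance trend 526 probe sets were lower. No member gene changed sign under any of 18 alternatives. With the replicate number as a block (replicate block) 5 member genes, 6 member probe sets, 688 genes and 1077 probe sets were lower. In deviations from the tissue means, same-numbered arrays correlated at 0.15, -0.02 and 0.08. Fetal liver replicates 1 and 3 correlated most with the marrow array of their own number, and replicate 2 with marrow replicate 3 (0.0999). With 3 arrays per tissue these values cannot decide whether the numbers pair the samples. Among other genes, none of them called, signs turned for Ifna1 under quantile normalization (0.0081) and with arrays left out (-0.53 to 0.091), for Pggt1b with the mean of probe sets (-0.0998) and with arrays left out (-0.13 to 0.44), and for Sqstm1 with the mean of probe sets (-0.17) and without probe sets prone to cross-hybridisation (-1.16). With arrays left out they also turned for Pecam1 (-0.73 to 0.11), Prf1 (-0.026 to 0.39), Tek (-0.040 to 0.20) and Cd79b (-0.21 to 0.88). The causes were not tested. Signals near the controls limit Gbp2, Gbp3, Gbp6 and Iigp1 in fetal liver.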

Other observations

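Of 40 tested genes beside the listed GBP and IRG in the RefSeq gene order, 2 fell and 1 rose. Of the 5 nearest tested genes on each side of the Gbp genes on chromosome 3, 0 fell and 1 rose, the actin-associated Pdlim5 (1.39 ± 0.29, SE, limma adjusted p = 0.0162), and the median of the 10 was 0.34. On chromosome 5 and around Igtp and Irgm2 on chromosome 11, 0 of 10 changed in each case, with medians of -0.06 and 0.31. Around Irgm1, 2 of 10 fell, and the median of the 10 was -0.62. These were Ifi47, itself an IRG, and Cyfip2, a regulator of the actin cytoskeleton (-2.18 ± 0.25, SE, limma adjusted p = 6.20e-04). Pdlim5 was not past the threshold without fetal liver replicate 2 or 3 or marrow replicate 2 (adjusted p = 0.0708, 0.137 and 0.0634; 0.00766 to 0.185 over all alternatives). These genes were looked at after the members' values were seen.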
